A study of Mus musculus with 6 samples.

Results

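Stathmins, the tubulin polymerization-promoting proteins and the classical neuronal microtubule-associated proteins (MAPs) set how stable the microtubules of a neuron are. The 10 genes Stmn1, Stmn2, Stmn3, Stmn4, Tppp, Tppp3, Mapt, Map1b, Map2 and Dcx were chosen by name, with earlier results of these data known. They are 10 of the 35485 genes in the deposited tables, where Map1b and Map2 stand under their older symbols Mtap1b and Mtap2. They were measured by RNA-seq in the retinas of male wild type C57BL/6 mice at 12 weeks of age, 2 days after the optic nerve was crushed with forceps (optic nerve crush, ONC) or exposed and left uncrushed (sham). There were 3 ONC samples, labelled NC in the files, and 3 sham samples, each a mixture of RNA from 6 retinas of 6 mice. All cell types of the retina were therefore measured together, at 1 time point, and in such bulk RNA fewer cells of a type and less RNA per cell cannot be told apart. The comparison asks which of these genes differed in the retina early after injury of the retinal ganglion cell (RGC) axons.

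Microtubules are polymers of tubulin dimers that fill axons and dendrites and carry their transport. Stathmins bind free tubulin dimers and favor disassembly, the TPPP proteins promote polymerization and bundling, and the MAPs bind along the polymer, tau (Mapt) mainly in axons and MAP2 mainly in dendrites. In the retina the RGCs are the only neurons with axons that leave the eye, and their axons enter the optic nerve.

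Among the 10 genes, Stmn4 rose and Tppp3 fell, each by more than 2-fold, after ONC. Tppp, Mapt and Stmn3 fell by smaller amounts, while Stmn1, Stmn2, Map1b, Map2 and Dcx did not pass the test. Exon reads were tested with edgeR by quasi-likelihood, and 1 of the 10 genes was higher and 4 were lower at an adjusted p under 0.1. Of all 13670 genes tested, 2.38% were higher and 3.72% were lower at that threshold. The 10 genes were chosen with earlier results of these data known, so these counts do not test whether the group stands out. Differentially expressed genes (DEGs) also had a fold change (FC) above 1.5. Stmn4 and Tppp3 were the 2 DEGs among the 10, against 0.827% of all genes called as higher DEGs and 0.834% as lower DEGs. The counts were also 1 higher and 4 lower without sham replicate 1, 1 and 6 without ONC replicate 1, and 1 and 2 without sham replicate 2 or sham replicate 3. The counts over all genes moved too, to 263 higher and 443 lower, 769 and 1262, 152 and 219, and 166 and 234 in these 4 fits, against 325 and 508 with all samples. The median log2 FC was -0.20 over the 10 genes and 0.01 over all genes tested.

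Depth and composition differed between the groups. The sham samples had 17343945 to 18349331 exon reads and the ONC samples 20019818 to 20358008. Exons held 70.9% to 76.6% of all gene reads in sham and 78.5% to 80.4% in ONC. RPKM, the deposited measure of level per exon length and depth, divides by all gene reads with those on introns included. Scaling the reads as RPKM does shifted the median log2 FC of all genes by 0.12, and the calls then split into 1507 higher and 223 lower genes (87.1% higher) in place of 325 and 508 (39.0% higher). Rod markers were abundant in all samples, with sums of 18800 to 19600 RPKM in sham and 20600 to 22000 in ONC, and 2 of 6, Sag and Pde6b, were higher in ONC. Of 12 RGC markers, 9 were lower and 1, Slc17a6, was higher in ONC, with a summed RPKM of 460 to 479 in sham and 346 to 364 in ONC. Of 4 horizontal cell markers, 1 was lower and 3 did not pass, with log2 FC from -0.83 to -0.16. Their median log2 FC was -0.43, against -0.49 for the RGC markers, but it rests on only these 4 genes. The 1 that passed had a log2 FC of -0.23. The 3 others were low, with means of 0.572 to 1.43 RPKM in sham and SE of 0.20 to 0.42. Of 6 microglia markers, 2 were higher, with sums of 9.67 to 12.7 RPKM in sham and 17.9 to 20.5 in ONC. Lens markers summed to 5.92 to 39.0 RPKM in sham, where replicate 1 was the highest, and to 39.0 to 50.9 in ONC, and 1 of 3 was higher. The part of depth, exon share and these markers in the results below was not tested.

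On the RPKM scale, which is per exon length and so allows levels of different genes to be set side by side, the order of the levels in sham was Stmn1, Stmn3, Map2, Map1b, Tppp3, Stmn2, Mapt, Tppp, Stmn4 and Dcx. Their mean levels ran from 119.4 ± 5.87 RPKM (SD, n = 3) for Stmn1 to 0.753 ± 0.0176 for Dcx, and no neighbouring pair in this order overlapped in its sample values. In ONC the order was Stmn1, Stmn3, Map2, Map1b, Stmn4, Stmn2, Mapt, Tppp3, Tppp and Dcx. Stmn4 had moved from rank 9 to rank 5 and Tppp3 from rank 5 to rank 8, while the order of the other 8 genes among themselves was the same in both groups. In ONC the values of Stmn3 and Map2 overlapped, as did those of Stmn4 and Stmn2, so these pairs did not differ beyond their spread.

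**Figure D1:**
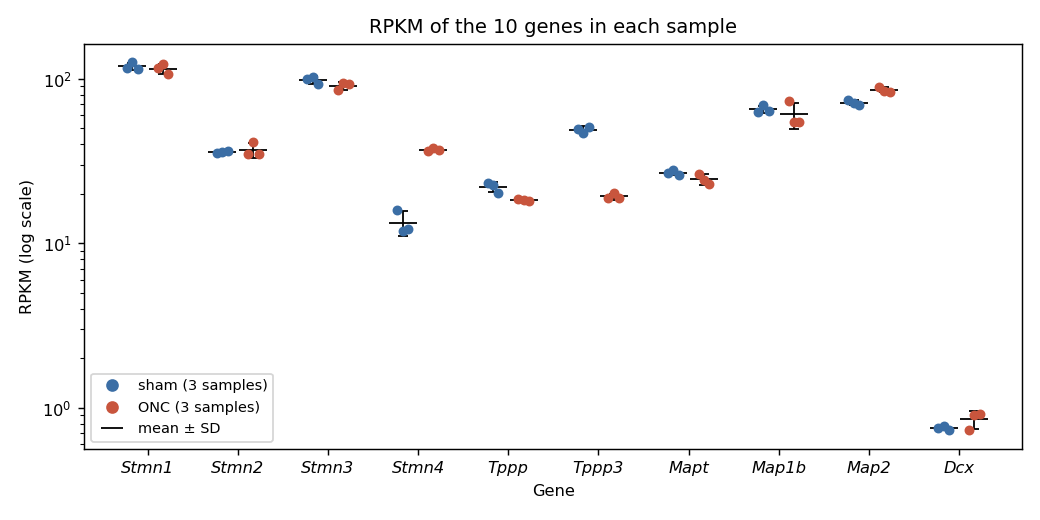
Level of each of the 10 genes in RPKM on a log axis, with sham samples in blue and ONC samples in red (points) and the mean ± SD of 3 samples (black). Stmn4 lies between 11.9 and 16.03 RPKM in sham and between 36.4 and 38.3 in ONC, and Tppp3 between 47.0 and 51.2 in sham and between 18.8 and 20.2 in ONC.

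The stathmins share a tubulin-binding domain, so the separation of their reads was examined first. Over the aligned coding sequences, any 2 of the 4 stathmins were identical at 65.9% to 73.5% of bases. The stretch of 100 bases, the read length, in which the family differs least is shown for each gene, because it is where reads would be hardest to assign. The sequences come from GENCODE vM1 transcripts on NCBIM37, and capitals mark bases that differ from Stmn1.
Stmn1: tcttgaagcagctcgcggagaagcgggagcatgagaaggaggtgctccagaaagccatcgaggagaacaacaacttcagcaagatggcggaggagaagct
Stmn2: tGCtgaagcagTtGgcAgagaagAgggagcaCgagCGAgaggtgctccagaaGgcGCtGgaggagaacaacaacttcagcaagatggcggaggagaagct
Stmn3: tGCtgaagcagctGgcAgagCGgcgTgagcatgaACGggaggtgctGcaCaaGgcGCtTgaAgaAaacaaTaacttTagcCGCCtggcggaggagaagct
Stmn4: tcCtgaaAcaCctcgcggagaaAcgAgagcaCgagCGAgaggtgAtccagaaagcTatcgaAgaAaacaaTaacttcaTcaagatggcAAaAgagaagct
In this stretch Stmn2 differed from Stmn1 at 14 bases, Stmn3 at 24 and Stmn4 at 18. No pair of stathmins differed at fewer than 13 bases in any aligned window of this length, while the mapping allowed 2 mismatches. All exon reads of Stmn2, Stmn3 and Stmn4 were uniquely mapped. For Stmn1, 28.7% to 33.5% of exon reads were uniquely mapped, and 1 other place in the genome matched its transcript, the pseudogene Gm11223 on chromosome 4 (chr4:69586235-69587204 in NCBIM37), at 99.5% over 970 bases. The value of Stmn1 is therefore uncertain to the extent that its reads were assigned between these 2 places.

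Stmn4 encodes RB3, a neuronal stathmin anchored to Golgi and vesicle membranes. The gene lies at chr14:66344375-66361680 in GRCm38 coordinates and has 6 exons in the files. It had 454, 350 and 367 exon reads in the sham samples and 1136, 1173 and 1183 in the ONC samples. All 3 ONC samples were above all 3 sham samples, and the ONC samples lay closer together than the sham samples. The mean level was 13.4 ± 2.32 RPKM in sham and 37.2 ± 0.931 in ONC (SD, n = 3). Exon reads rose 2.57-fold (log2 FC 1.36 ± 0.10 SE, adjusted p = 5.59e-08, edgeR), which placed Stmn4 at rank 11 of 13670 genes by p. Reads that join 2 exons, which come from spliced RNA, rose with a log2 FC of 1.24 ± 0.13 (adjusted p = 1.73e-07, edgeR). Stmn4 passed in every one of the 18 alternative analyses of exon reads, with log2 FC between 1.24 and 1.49.

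The 3 other stathmins showed no rise. Stmn3 encodes SCLIP, which is also membrane bound and found in neurons, and lies at chr2:181306459-181314500. It had 2607, 2810 and 2597 exon reads in sham and 2464, 2689 and 2730 in ONC. The groups overlapped in these reads, which are not scaled for depth, and in RPKM (93.4 to 103.3 in sham and 85.7 to 95.1 in ONC). After normalization for depth its log2 FC was -0.24 ± 0.06 (adjusted p = 0.0269, edgeR). This call was lost without sham replicate 2 (adjusted p = 0.131), without sham replicate 3 (adjusted p = 0.123) and with the scaling of RPKM (log2 FC -0.12, adjusted p = 0.348). It was also lost with limma (log2 FC -0.12, adjusted p = 0.313 and 0.314), and held in 13 of 18 alternative analyses.

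Stmn2 encodes SCG10, which is enriched in growth cones and is widely used as a marker of growing axons, and lies at chr3:8509527-8561604. It had 1546, 1647 and 1703 exon reads in sham and 1674, 1949 and 1722 in ONC, and the groups overlapped. Its log2 FC was -0.09 ± 0.07 (adjusted p = 0.583, edgeR) and turned to 0.04 with the scaling of RPKM. Stmn1, the cytosolic stathmin of dividing and developing cells, lies at chr4:134468320-134473843. It had 2847, 3203 and 2991 exon reads in sham and 3116, 3242 and 2960 in ONC, with a log2 FC of -0.17 ± 0.06 (adjusted p = 0.166, edgeR). On uniquely mapped reads alone its log2 FC was -0.09 ± 0.08, and without ONC replicate 1 the difference passed the test (log2 FC -0.19, adjusted p = 0.0393, edgeR).

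Within the stathmin family the make-up of the RNA differed between groups. Stmn4 made up 5.98%, 4.28% and 4.73% of the summed stathmin RPKM in the sham samples and 13.34%, 12.86% and 13.60% in the ONC samples. The share of Stmn3 was 36.9% ± 0.549 in sham and 32.5% ± 1.39 in ONC (SD, n = 3), and that of Stmn1 was 44.6% ± 0.954 in sham and 41.1% ± 1.5 in ONC. For these 3 genes the sample values of the groups did not overlap, and for Stmn2 they did, with means of 13.5% and 13.1%. Such shares do not depend on the scaling between samples, but they do on how the Stmn1 reads are counted. The share in ONC less that in sham was 8.27 percentage points for Stmn4, -4.45 for Stmn3, -3.48 for Stmn1 and -0.34 for Stmn2, and on uniquely mapped reads it was 11.19, -8.62, -1.23 and -1.35. In the two-sided exact permutation test Stmn4, Stmn3 and Stmn1 each gave p = 0.1, the smallest that 3 samples against 3 allow, and 0.14 after Benjamini-Hochberg adjustment over 7 shares. The shares of a family are tied to each other, so a larger share of Stmn4 lowers the shares of the other genes. The lower shares of Stmn3 and Stmn1 are therefore not results separate from that of Stmn4.

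The Tppp genes were compared in the same way. Tppp and Tppp3 were identical at 67.4% of aligned coding bases, and the 100 bases in which they differ least are shown, with capitals for the bases of Tppp3 that differ from Tppp.
Tppp: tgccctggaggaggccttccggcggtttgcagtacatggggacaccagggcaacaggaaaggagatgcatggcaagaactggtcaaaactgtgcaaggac
Tppp3: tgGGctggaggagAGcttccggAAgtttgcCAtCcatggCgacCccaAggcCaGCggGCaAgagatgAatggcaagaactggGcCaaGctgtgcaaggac
They differed there at 22 bases, all exon reads of both genes were uniquely mapped, and no other copy of either transcript was found in the genome.

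Tppp3, which promotes polymerization and bundling of microtubules, lies at chr8:105467492-105471422 and has 4 exons in the files. It had 1167, 1152 and 1284 exon reads in the sham samples and 486, 515 and 502 in the ONC samples. Every ONC sample was below every sham sample. The mean level fell from 49.3 ± 2.15 to 19.3 ± 0.802 RPKM (SD, n = 3). In the test, exon reads fell by 1.48 ± 0.09 on the log2 scale, to 0.359 of the sham level (adjusted p = 6.00e-09, edgeR), which was rank 2 of all genes by p. Reads across exon junctions fell by 1.43 on the log2 scale (adjusted p = 1.65e-09, edgeR). The call held in all 18 alternative analyses of exon reads, with log2 FC between -1.53 and -1.31.

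Tppp, the founding member of the family, is known in the brain for its high level in oligodendrocytes and lies at chr13:74009419-74035753. It had 2729, 2763 and 2518 exon reads in sham and 2383, 2323 and 2392 in ONC, and the groups did not overlap. Its log2 FC was -0.39 ± 0.06 (adjusted p = 0.000464, edgeR). It passed in all 18 alternative analyses, with log2 FC between -0.56 and -0.25. The highest adjusted p was 0.0931 (limma, pseudocount 0.1), close to the threshold. Oligodendrocyte markers were low, with a summed RPKM of 9.75 to 10.1 in sham and 10.4 to 11.9 in ONC. The 3 of these 6 markers that could be tested had log2 FC from -0.17 to 0.22 and did not pass in edgeR, also at an unadjusted p under 0.05, and Mobp was listed at 0 in both groups. The third gene of the family, Tppp2, had 0 exon reads in all 6 samples, which allows up to 3 reads a sample by counting error alone.

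Tppp3 fell further than Tppp, so the 2 genes moved toward equal levels. Tppp3 made up 68.01%, 67.45% and 71.71% of the family's summed RPKM in the sham samples and 50.34%, 52.43% and 51.06% in the ONC samples. The difference of 17.8 percentage points was larger than the spread between samples (SD 2.31 in sham and 1.06 in ONC). The two-sided exact permutation test gave p = 0.1, the smallest possible here, and 0.14 after adjustment over the 7 shares. These 7 include Tppp2, whose share was 0 in every sample. They also include both Tppp and Tppp3, whose differences mirror each other, so the adjusted value depends on this make-up.

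**Figure D2:**
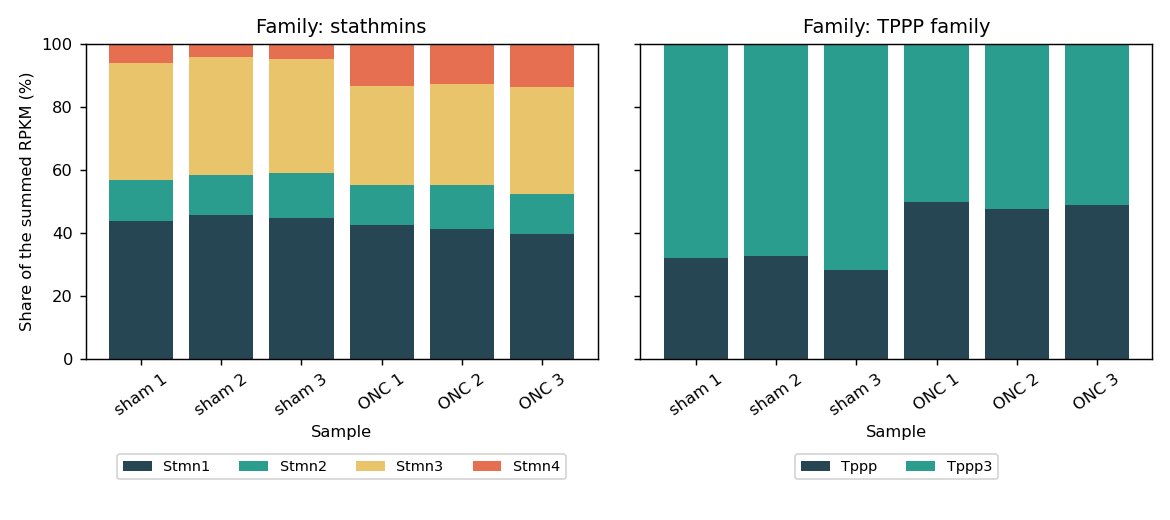
Share of each gene in the summed RPKM of its family (percent, stacked to 100) in each of the 6 samples, for the 4 stathmins (left) and for Tppp and Tppp3 (right). Stmn4 takes 4.28% to 5.98% in sham and 12.86% to 13.60% in ONC, and Tppp3 67.45% to 71.71% in sham and 50.34% to 52.43% in ONC.

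The MAPs and doublecortin changed less. Mapt encodes tau and lies at chr11:104231436-104332096. It had 3330, 3596 and 3454 exon reads in sham and 3609, 3236 and 3205 in ONC, not scaled for depth. In RPKM, ONC replicate 1 (26.5) lay within the range of the sham samples (26.2 to 27.9). The other 2 ONC samples (24.1 and 22.9 RPKM) lay below it. Its log2 FC was -0.26 ± 0.07 (adjusted p = 0.0330, edgeR). The call was lost without sham replicate 2 (adjusted p = 0.150), sham replicate 3 (0.175), ONC replicate 2 (0.126) or ONC replicate 3 (0.180), and with the scaling of RPKM (log2 FC -0.14, adjusted p = 0.248). It was also lost with limma (log2 FC -0.14 and -0.135, adjusted p = 0.298 and 0.296), and held in 11 of 18 alternative analyses.

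Map1b encodes a MAP of growing axons and lies at chr13:99421464-99516602. It had 17194, 19664 and 18641 exon reads in sham and 22052, 16124 and 16712 in ONC. Here ONC replicate 1 was the highest of all samples and the other 2 were the lowest, also in RPKM. The ONC samples were at 73.5, 54.7 and 54.4 RPKM and the sham samples at 63.1 to 69.3. With all samples the log2 FC was -0.23 ± 0.09 (adjusted p = 0.215, edgeR), and without ONC replicate 1 it was -0.41 ± 0.05 (adjusted p = 1.30e-06). Over all genes, ONC replicate 1 also differed more from the other ONC samples (chi-square per gene of 14.6 and 11.36) than they did from each other (4.71).

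Map2, the dendritic MAP, lies at chr1:66175329-66442583. It had 9421, 9422 and 9434 exon reads in sham and 12562, 11688 and 11969 in ONC. The groups did not overlap, either in reads or in RPKM (71.8 ± 2.25 in sham and 86.2 ± 3.31 in ONC, SD, n = 3). After TMM normalization, which sets the scale by the bulk of the genes, the log2 FC was 0.14 ± 0.06 and did not pass (adjusted p = 0.205, edgeR). With the scaling of RPKM, which moved all genes up as stated above, it was 0.26 ± 0.07 and passed (adjusted p = 0.0119, edgeR). The call for Map2 thus depended on the scale. Reads across its exon junctions gave a log2 FC of 0.02 ± 0.08 (adjusted p = 0.990, edgeR).

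Dcx, doublecortin, is a MAP of migrating young neurons and lies at chrX:143855842-143933219. It had 158, 169 and 165 exon reads in sham and 169, 206 and 219 in ONC, or 0.753 and 0.852 RPKM on average. The groups overlapped, and the log2 FC was 0.05 ± 0.16 (adjusted p = 0.901, edgeR). Its SE was more than 2 times those of Stmn3 and Mapt.

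Reads outside exons give a second readout of the same genes, since introns are present in RNA that is not yet spliced. Intron reads were taken as all reads of a gene less its exon reads. Among the 10 genes, Stmn4 rose and Map1b fell in intron reads, and 8 did not pass. Of 13317 genes tested on intron reads, 0.511% were higher and 2.37% were lower at an adjusted p under 0.1 in edgeR. Intron reads were few for most of the 10 genes, from 0.5% of gene reads in one Stmn1 sample to 30.3% in one Map2 sample.

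Stmn4 had 33, 34 and 18 intron reads in the sham samples and 87, 127 and 165 in the ONC samples, without overlap. The log2 FC was 2.15 ± 0.32 (adjusted p = 0.0344, edgeR), rank 3 of the genes tested. The difference between its exon and intron change, tested in a model over both kinds of reads, was -0.80 ± 0.31 and did not pass (adjusted p = 0.304, edgeR). Without sham replicate 2 or ONC replicate 2, 0 of the 13317 genes passed on intron reads in edgeR (2113 and 1352 had an unadjusted p under 0.05), and without ONC replicate 3, 1 did. The intron call of Stmn4 was lost in these 3 fits, with log2 FC of 2.29, 2.13 and 2.03 and adjusted p of 0.12, 0.138 and 0.167 (edgeR).

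Map1b had 919, 994 and 1372 intron reads in sham and 595, 504 and 697 in ONC. Here ONC replicate 1 lay between the other ONC samples, and the groups did not overlap. The log2 FC was -0.82 ± 0.17 (adjusted p = 0.0465, edgeR). Its exon change was less negative by 0.58 ± 0.15, which did not pass (adjusted p = 0.17, edgeR). This difference passed in 2 of 11 alternative analyses, the DESeq2 Wald test and the fit without a filter. The intron call was lost without sham replicate 2 (adjusted p = 0.12), ONC replicate 2 (0.318) or ONC replicate 3 (0.180).

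Tppp3 had 17, 20 and 32 intron reads in sham and 44, 35 and 27 in ONC, so the groups overlapped. Its intron log2 FC was 0.70 ± 0.46 (adjusted p = 0.455, edgeR), against -1.48 for exon reads. The difference of -2.15 ± 0.34 passed the test (adjusted p = 0.0888, edgeR), and Tppp3 was the only one of the 10 genes to do so. Of 11324 genes in this model, 0.0353%, or 4 genes, passed. The call rested on counts of at most 44 reads and was lost on leaving out any sample other than sham replicate 1, with adjusted p from 0.144 to 0.420 over those 5 fits. The direction was the same in all of them, with differences between -2.41 and -1.86.

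**Figure D3:**
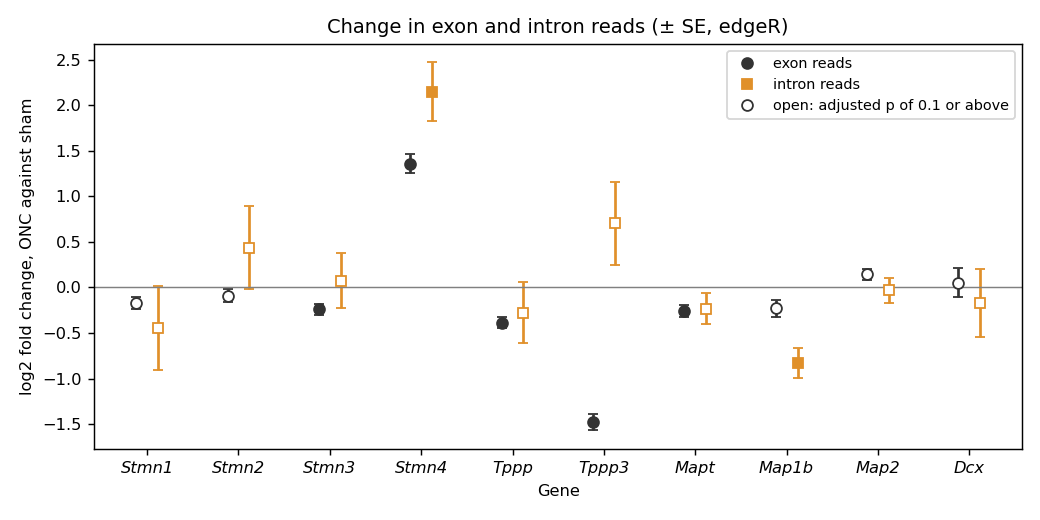
Log2 FC between ONC and sham (± SE, edgeR, 3 samples a group) of exon reads (circles) and intron reads (squares) for each of the 10 genes, filled where the adjusted p was under 0.1. Stmn4 is high in both, Tppp3 is at -1.48 in exon reads and 0.70 in intron reads, and Map1b is at -0.23 and -0.82.

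**Figure D4:**
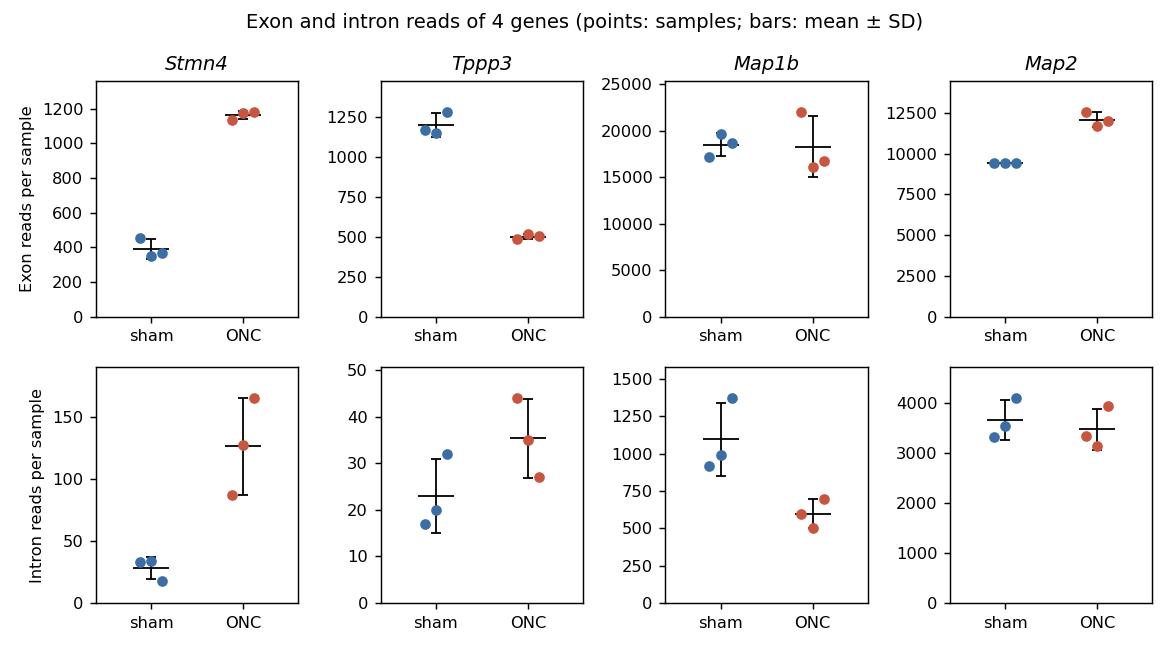
Exon reads (top) and intron reads (bottom) per sample for Stmn4, Tppp3, Map1b and Map2, as deposited and not scaled for depth, with each axis starting at 0 and the mean ± SD in black. The groups separate in exon reads for Stmn4, Tppp3 and Map2 and in intron reads for Stmn4 and Map1b, and 1 ONC sample of Map1b stands above the rest in exon reads.

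The 10 genes were set beside 99 other genes of microtubule regulation in 7 lists. All 99 were found in the files, 11 of them under older symbols, and 91 had enough reads to be tested. Of these, 1 was higher and 6 were lower in ONC (7.69%, against 6.09% of all genes tested), and their median log2 FC was -0.03. All 7 changes were smaller than those of Stmn4 and Tppp3.

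Collapsin response mediators bind tubulin dimers and take part in growth cone guidance. Of 5 tested, 2 were lower, Dpysl2 (CRMP2) with a log2 FC of -0.54 ± 0.11 (adjusted p = 0.00810, edgeR) and Dpysl5 (CRMP5) with -0.46 ± 0.10 (adjusted p = 0.00738, edgeR). Dpysl2 was at 16.6 to 17.7 RPKM in sham and at 16.4, 11.4 and 10.9 in ONC, where replicate 1 was close to the sham samples. Dpysl2 did not pass in the DESeq2 Wald test (adjusted p = 0.139). Dpysl5 did not pass on reads across exon junctions (adjusted p = 0.308, edgeR) or with limma (adjusted p = 0.113 and 0.114, log2 FC -0.33 and -0.29).

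Of the 15 other MAPs tested, 1 was lower. It was Map1a, the relative of Map1b that prevails in mature neurons, at 14.7 to 15.9 RPKM in sham and 10.6 to 13.2 in ONC (log2 FC -0.52 ± 0.08, adjusted p = 0.000509, edgeR). Reads across its exon junctions gave -0.28 ± 0.16 and did not pass (adjusted p = 0.519, edgeR). The next list held 16 genes of kinases that phosphorylate stathmins or MAPs, or of activators of such kinases. Among them Mapk10, which encodes the neuronal kinase JNK3, was lower (log2 FC -0.35 ± 0.06, adjusted p = 0.00199, edgeR). Its RPKM was 11.8 to 12.7 in sham and 10.4 to 10.5 in ONC. Of 18 genes of tubulin modification, Ttll7, a polyglutamylase of beta-tubulin, was lower (log2 FC -0.34 ± 0.06, adjusted p = 0.00335, edgeR). With limma on RPKM (pseudocount 0.1) Mapk10 and Ttll7 did not pass, with log2 FC of -0.23 and -0.21 and adjusted p of 0.147 and 0.185.

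Among 20 genes of plus end tracking, Macf1, which links microtubules to actin, was lower (log2 FC -0.23 ± 0.06, adjusted p = 0.0308, edgeR). Of 10 severing and depolymerising proteins, Katna1, the catalytic subunit of katanin, was higher (log2 FC 0.37 ± 0.12, adjusted p = 0.0976, edgeR), at 7.22 to 9.44 RPKM in sham and 11.4 to 12.0 in ONC. The call for Katna1 was close to the threshold. Macf1 did not pass without sham replicate 2 (adjusted p = 0.204), sham replicate 3 (0.139) or ONC replicate 2 (0.154), with the scaling of RPKM (log2 FC -0.11, adjusted p = 0.304) or with limma (log2 FC -0.11 and -0.10, adjusted p = 0.422 and 0.421). Katna1 did not pass without sham replicate 2 (0.361), sham replicate 3 (0.179), ONC replicate 2 (0.247) or ONC replicate 3 (0.205). It passed in 9 of 18 alternative analyses.

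In the doublecortin domain family, 0 of 7 genes passed in edgeR, 0 had an unadjusted p under 0.05, and 0 passed in DESeq2 or limma. The gene of largest change there was Dclk3, with a log2 FC of 0.38 ± 0.37 (adjusted p = 0.651, edgeR). Without ONC replicate 1, the genes of the 7 lists that passed were 2 higher and 16 lower, in place of 1 and 6, while the calls over all genes rose to 769 and 1262, as given above.

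**Figure D5:**
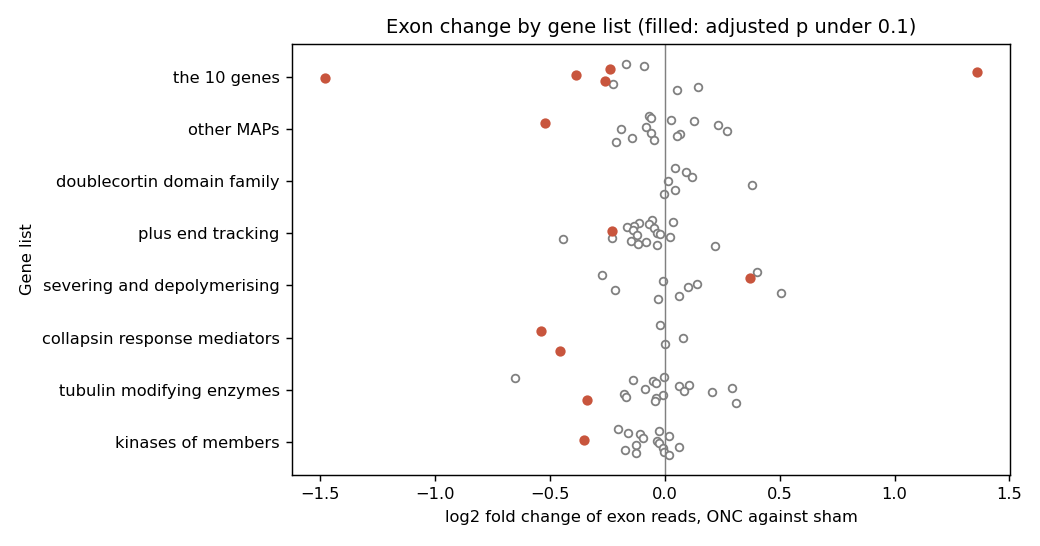
Log2 FC of exon reads between ONC and sham for the 10 genes and for the tested genes of 7 lists of microtubule regulation, each point 1 gene, filled red where the adjusted p was under 0.1 (edgeR). Tppp3 at -1.48 and Stmn4 at 1.36 stand outside the range of the lists, which runs from -0.65 to 0.51.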

How the data were processed

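RNA from whole retinas was sequenced as 100 bp paired reads from 3 ONC and 3 sham samples, mapped by the authors with CLC Genomics Workbench to mm9 with at most 2 mismatches. The authors deposited read counts per gene for exons and for whole genes, total and unique, without normalization, and RPKM. Although the authors name mm9, the gene positions in the files match GRCm38 and are given as such. Of 29908 gene symbols also found in RefSeq, 73.3% had the same start or end as in GRCm38. Groups were taken from the labels. Nothing in the labels pairs samples, and p-values measure the spread between pools.

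Exon counts of genes whose mean RPKM exceeded 0.3 in ONC or in sham were tested with edgeR 4.0.16 (TMM, quasi-likelihood, Benjamini-Hochberg adjustment) in R 4.3.3. The SE is the log2 FC divided by the square root of F. Intron reads were tested likewise for genes with a mean of at least 10, and exon against intron change in a model of both with sample as a block. Alternatives used limma 3.58.1 and DESeq2 1.42.0, other scalings, filters (intron mean of 50, RPKM above 1) and read types, and left out each sample. The 3 edgeR fits were tested on simulated data. Sequences were aligned with mafft 7.526 and searched with blastn 2.17.0 (copies: at least 95% over 200 bases). Shares were compared with scipy 1.17.1.

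The 10 genes and all lists were chosen with earlier results of these data known. Named beside the 10 genes and Tppp2 were the genes of each pathway list with an adjusted p under 0.1, and the largest change in a list without any. The marker genes named (Slc17a6, Sag, Pde6b and Mobp) were chosen after their values were seen. Replicate pairs differed by more than sampling noise (chi-square per gene of 4.71 to 14.6).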

Additional observations from a re-analysis of the deposited data

How the results depend on the processing

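Stmn4, Tppp3 and Tppp kept their direction and passed the test in all 18 alternatives for exon reads, and 2 of the 10 genes were DEGs in each of 19 settings. The other counts moved with the scale, the threshold and the samples, and the cause was not tested. Of the 10 genes, 2 were higher with the sum of exon reads, the RPKM divisor or limma (pseudocount 0.1 or 1), and 2 were lower with the RPKM divisor or limma. Over all genes the calls were 399 higher and 442 lower with the sum of exon reads, and 1507 and 223 with the RPKM divisor. With limma they were 978 and 143 (pseudocount 0.1) and 1011 and 147 (pseudocount 1). Leaving out 1 sample gave 2 to 6 lower genes. Over all genes, 174 were higher and 261 lower without ONC replicate 2, and 179 and 273 without ONC replicate 3. Of the 91 genes of microtubule regulation, 0 were higher with DESeq2 size factors, a mean RPKM above 1, total gene reads, reads across exon junctions or an adjusted p under 0.05 (edgeR, main count 1, 15 of the 91 at an unadjusted p under 0.05 in either direction), and 4 were higher with the scaling of RPKM. Total gene reads gave 10 lower genes and limma 2, in place of 6. Over all genes, 784 were lower with total gene reads and 143 or 147 with limma, in place of 508. Leaving out 1 sample gave 0 to 2 higher and 5 to 16 lower genes.

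On intron reads, leaving out 1 sample gave 0 to 2 of the 10 genes, and over all 13317 genes the calls fell to 0 or 1 in the 3 fits that gave 0. The unequal exon and intron change was called for 0 genes with DESeq2 size factors, 0 with a mean of 50 intron reads (which drops Tppp3), 2 without a filter, and 0 to 1 on leaving out 1 sample. The DESeq2 Wald test gave Tppp3 no adjusted p there and called 1 of the 10 genes, Map1b.

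The replicate numbers did not pair the samples (correlations of deviations -0.059, -0.025 and 0.007). With the replicate block, 1 of the 10 genes was higher and 4 were lower, 2 changed in intron reads, and 0 pathway genes were higher. Over all genes, the block gave 281 higher and 447 lower on exon reads, and 43 and 317 on intron reads.

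Directions turned only for results that had not passed, also where the gene passed on exon reads. Stmn2 exon reads had log2 FC of 0.036 with the scaling of RPKM and 0.032 and 0.031 with limma, and Stmn3 intron reads -0.178 with the exon scaling. Leaving out 1 sample gave ranges of -0.013 to 0.139 for Dcx exon reads. For intron reads they were -0.327 to 0.776 for Stmn2, -0.128 to 0.435 for Stmn3, -0.117 to 0.032 for Map2 and -0.443 to 0.058 for Dcx. For exon minus intron change they were -0.102 to 0.63 for Stmn1, -0.86 to 0.24 for Stmn2, -0.304 to 0.044 for Tppp, -0.109 to 0.093 for Mapt and -0.064 to 0.478 for Dcx. The difference in the share of Stmn2 ranged from -0.7 to 0.02 percentage points.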
